A study of Mus musculus with 1 sample.

Results

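The cells described here are the mesothelial cells of the 2-week-old mouse pancreas, defined by their transcripts in 1 single-cell RNA sequencing library. A barcode was counted as mesothelial, and is called a member from here on, when it passed 3 kinds of limit. It held more than 800 and fewer than 100000 UMIs (unique molecular identifiers, the tags by which captured transcripts were counted), with under 15% of them mitochondrial. It held at least 4 UMIs summed over *Msln*, *Upk3b*, *Lrrn4*, *Gpm6a* and *Krt19*, at least 1 of them from *Msln* or *Upk3b*. It held no UMI of the leukocyte gene *Ptprc* or of the endothelial genes *Pecam1* and *Cdh5*, and under 5% of its UMIs came from the acinar enzyme genes *Ctrb1*, *Pnliprp1*, *Clps* and *Reg1*. Of the 10947 barcodes that passed the UMI and mitochondrial limits (92.9% of the 11789 in the table), 462 were members, a share of 4.22% (exact 95% Clopper-Pearson interval 3.85 to 4.61).

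The study asked what loss of SCAP, the escort protein that sterol regulatory element binding proteins need for activation, does to the pancreas. The library analysed came from *Scap* f/f mice, whose *Scap* alleles were floxed and which carried no Cre, so that *Scap* was intact. Pancreata of 5 to 6 mice, males and females in equal number, were pooled, digested with collagenase, cleared of dead cells and loaded on 3′ droplets. The *Scap* Δpanc library, in which *Pdx1*-Cre deletes *Scap* in the pancreatic epithelium, was not analysed here. The pool was 1 library with no replicate and no label tying a cell to a mouse, so no test between animals was possible and every interval covers counting error only. The library held 51540177 UMIs, and no barcode occurred more than once.

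The mesothelium is the sheet of flattened cells that covers the abdominal organs and lines the body wall. It comes from the mesoderm but is built like an epithelium, with keratins, cell junctions, an apical surface and a basement membrane, and it keeps many transcripts of connective tissue. Mesothelial cells are known for a surface coat of mesothelin and mucins that reduces friction, for transcription factors of the body cavity lining such as WT1, and, in the embryo, for giving rise to fibroblasts and mural cells of the organ beneath.

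The 5 rule genes lie on different chromosomes of the mouse build GRCm38 (mm10). In the GENCODE annotation, *Upk3b*, a uroplakin of apical membrane plaques, spans chr5:136038496-136046487 on the plus strand. *Msln*, the surface protein mesothelin, spans chr17:25748613-25754378 on the minus strand. *Lrrn4*, a membrane protein with leucine-rich repeats, spans chr2:132868305-132880891 on the minus strand. *Gpm6a*, a proteolipid of membrane protrusions, spans chr8:54954843-55060871 on the plus strand, and *Krt19*, an acidic keratin, spans chr11:100140810-100148665 on the minus strand. *Wt1* lies at chr2:105126529-105173616 on the plus strand.

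The promoters of *Upk3b*, *Lrrn4* and *Slpi* are shown because these genes were among the 6 with the largest fold in members over all other kept barcodes, and because *Slpi* also separated the members among themselves. Each sequence is the 250 bases before the annotated start in RefSeq for GRCm38.p6, read 5′ to 3′ on the strand of the gene, at chr5:136038246-136038495 on the plus strand for *Upk3b*, chr2:132880863-132881112 on the minus strand for *Lrrn4* and chr2:164356508-164356757 on the minus strand for *Slpi*. Capitals mark a GATA motif (the letters GATA with A or T before them and A or G after them) or the TEAD motif GGAATG, on either strand.
Upk3b: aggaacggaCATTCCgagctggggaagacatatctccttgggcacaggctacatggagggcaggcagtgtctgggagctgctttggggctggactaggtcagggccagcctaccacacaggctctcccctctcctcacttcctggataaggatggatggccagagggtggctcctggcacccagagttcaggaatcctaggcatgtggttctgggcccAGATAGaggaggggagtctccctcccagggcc
Lrrn4: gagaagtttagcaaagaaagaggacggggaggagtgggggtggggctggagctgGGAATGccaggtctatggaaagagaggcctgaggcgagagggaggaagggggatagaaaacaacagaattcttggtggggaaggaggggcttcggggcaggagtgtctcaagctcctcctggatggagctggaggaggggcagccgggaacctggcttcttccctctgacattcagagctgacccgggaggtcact
Slpi: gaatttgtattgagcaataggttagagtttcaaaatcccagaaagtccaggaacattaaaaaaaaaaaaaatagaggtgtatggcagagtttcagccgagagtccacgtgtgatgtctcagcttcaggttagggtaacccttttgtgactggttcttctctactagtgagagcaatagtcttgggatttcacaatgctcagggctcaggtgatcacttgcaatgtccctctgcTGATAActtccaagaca
Of 23 marker genes of the lists used below, 17 had a promoter in the table. A GATA motif stood in 7 of the 17, *Upk3b*, *Gpm6a*, *Muc16*, *Krt8*, *Slpi*, *Igfbp6* and *Dmkn*, against 26.5% of all 32851 promoters. The TEAD motif stood in 5 of the 17, *Upk3b*, *Lrrn4*, *Gpm6a*, *Cldn15* and *Igfbp5*, against 12.6% of all promoters. The EGR and WT1 motif GCGTGGG stood in the promoter of *Aldh1a2*, 1 of the 17, against 4.3% of all promoters. A gene with several entries was counted when any of them held the motif, which favours such genes. A match describes the letters and is not evidence of binding.

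Before levels are given, the members that stood apart have to be named. When the members were clustered alone, with the 5 rule genes left out, they fell into 5 clusters. The largest held 198 members and was led by *Plet1*, *Krt14*, *Slpi* and *Clic3*, and it is called the *Slpi Muc16* cluster. The next held 178 and was led by *Lepr*, *Cd74*, *Ctnnd2*, *Pde7b*, *Enpp2* and *Igfbp2*, and it is called the *Enpp2 Igfbp2* cluster. A smaller one, of 31, was led by the mitotic genes *Ube2c*, *Prc1* and *Cenpf* and is called cycling. The other 2 went against the label or carried a second cell type.

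A cluster of 6 members (1.3%, interval 0.478 to 2.81) was led by the islet hormone genes *Gcg*, *Ins2* and *Ins1* and the duct genes *Spp1*, *Pkhd1* and *Sox9*. These 6 barcodes held 16541, 60468, 55802, 38692, 57297 and 72266 UMIs, against a median of 4392 over all members, so together they gave 10.3% of the members' UMIs. Their UMIs of the epithelial adhesion gene *Epcam* were 11, 72, 74, 26, 65 and 40. Their UMIs of *Upk3b* were 1, 3, 1, 0, 1 and 0, and 1 UMI of *Wt1* was found in all of them together. Their UMIs of *Msln* were 0, 0, 0, 1, 0 and 4. Their UMIs of *Krt19*, a keratin of ducts as well as of mesothelium, were 3, 22, 11, 7, 37 and 4. Their UMIs of *Ins2* were 0, 7, 1, 2, 2 and 6993, and those of *Gcg* were 1, 0, 0, 0, 0 and 2548, so the last barcode held nearly all of both. These barcodes thus carried duct or islet transcripts and few mesothelial ones.

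A cluster of 49 members (10.6%, 7.95 to 13.8) was led by *H19*, *Postn*, *Tnfaip6*, *Dpt*, *Igf2* and *Lum*, which are transcripts of fibroblasts and of the growing mesenchyme. Scrublet, which scores barcodes against simulated doublets, marked 29 of the 49 (59.2%), against 42 of all 462 members (9.09%) and 537 of all kept barcodes (4.91%). The median UMI count of this cluster was 6715, above the medians of 3932 and 3870 in the *Enpp2 Igfbp2* and *Slpi Muc16* clusters. The part of doublets in its transcripts was not tested beyond these counts. Levels are therefore given over all 462 members and, where they moved by over 1.5-fold, over the 407 members of the other 3 clusters.

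In a clustering of all kept barcodes, from which the rule genes were not left out and which is therefore no independent check of the label, 448 of the 462 (97%) fell into 1 cluster, of 616 barcodes, whose leading genes were *Upk3b*, *Slpi*, *Lgals7*, *Cxcl13*, *C3*, *Gpm6a*, *Igfbp2*, *Lrrn4*, *Msln* and *Enpp2*. The other 168 barcodes of that cluster were not members, 108 of them because the rule genes summed too low. *Wt1*, the marker among the 5 given for this cell type that the rule did not use, was detected in 85.3% of members and 5.85% of immune cells, at median depths of 4392 and 2007 UMIs. With every cell thinned at random to 800 UMIs, which left no cell out, these shares were 39.6% and 2.31%. The duct and islet cluster fell in a cluster led by *Ins1*, *Ins2*, *Gcg* and *Spp1*.

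Markers of other cell types were measured in the same members. The 8 ductal markers summed to 1182 CPM (UMIs of a gene scaled to 1000000 UMIs of the class) over all members and to 72.1 CPM over the 407. Their most abundant gene was *Spp1* at 716 CPM, and 94.8% of their UMIs lay in 6 members. The 5 endocrine markers summed to 4530 and 81.7 CPM in the same order, with *Ins2* the most abundant at 2432 CPM and *Sst* at 0. Few UMIs of either list were thus left in the 407. The 6 fibroblast markers summed to 22528 CPM and, over the 407 members, to 24197 CPM, led by *Col3a1* at 12225 CPM. They were found in all 462 members. The acinar markers summed to 4395 CPM, led by *Ctrb1* at 1613 CPM, and were also found in every member. With the profile of immune cells subtracted as ambient RNA, *Ctrb1*, *Pnliprp1* and *Reg1* fell to 0 and *Clps* from 1202 to 274 CPM. The profile was scaled to the acinar UMIs of the members, so this fall was set by the method. Red blood cell markers summed to 2297 CPM, led by *Hbb-bs* at 1302 CPM, in 378 members, with 75.2% of their UMIs in 6 members. The immune markers summed to 46.3 CPM with *Ptprc* at 0, and the endothelial markers to 132 CPM with *Pecam1* and *Cdh5* at 0, as the rule required. The mural markers summed to 133 CPM, led by *Acta2* at 96.7 CPM, and the Schwann markers to 5.11 CPM with *Sox10* at 0.

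The rule genes chose the members, so their values describe the choice and support nothing. *Upk3b* was the most regular of them, with 0, 4 and 108 UMIs as the lowest, median and highest count in a member, and it was detected in 451 members (97.6%). *Krt19* ran from 0 through a median of 2 to 40 UMIs and was detected in 401 (86.8%). *Gpm6a* had a median of 3 and a highest count of 86, in 397 members (85.9%). *Lrrn4* had a median of 2 and a highest count of 39, in 352 (76.2%). *Msln* was the sparsest, with a median of 1 and a highest count of 48, in 302 (65.4%). Both *Msln* and *Upk3b* were detected in 291 members, *Upk3b* alone in 160 and *Msln* alone in 11. All 5 genes were detected in 197 members (42.6%), 4 in 153 (33.1%), 3 in 83, 2 in 28 and 1 in 1.

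**Figure D1:**
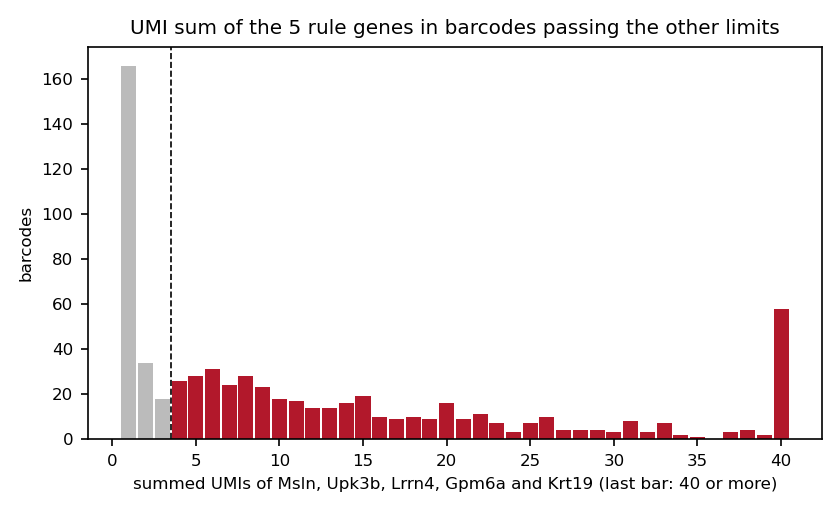
The plot shows the number of barcodes (vertical axis) at each UMI sum of the 5 rule genes (horizontal axis, with sums of 40 or more in the last bar), among barcodes that met every other part of the rule. The dashed line is the threshold of 4 UMIs. Barcodes fell from 166 at a sum of 1 to 34 at 2 and 18 at 3, and the members (red) started with 26 at a sum of 4 and had 58 at 40 or more.

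The sum over the rule genes ran from 4 through a median of 14 to 289 UMIs. The 26 members just inside the threshold, with a sum of 4, and the 18 barcodes just outside it, with a sum of 3, had median depths of 2119 and 2038 UMIs. *Wt1* stood at 906 CPM (exact 95% Poisson interval 709 to 1141) just inside and at 397 CPM (246 to 607) just outside. *C3* stood at 1724 CPM (1448 to 2038) and 945 CPM (701 to 1246) in the same order. *Epcam* had no UMI inside, which allows up to 37.8 CPM, and stood at 265 CPM (145 to 444) outside. Barcodes just below the threshold thus held mesothelial transcripts at lower levels, and some epithelial ones.

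Levels of the mesothelial markers that the rule did not use are given next, in CPM. Only the 3′ end of each transcript was counted, so transcript length does not enter. Members were set beside 4628 fibroblasts, 80 duct-like cells, 340 endothelial cells and 1299 immune cells of the same library, with median depths of 2784, 8825, 4751 and 2007 UMIs. The fibroblasts were barcodes with *Col1a1* and *Col3a1* and with *Pdgfra* or *Dpt*. The duct-like cells held at least 4 UMIs summed over *Epcam*, *Cdh1*, *Sox9*, *Cldn3* and *Cldn7*, with *Epcam* or *Cdh1* among them. Of their UMIs, 8.91% were from the 4 acinar genes. The endothelial cells held at least 3 UMIs of *Pecam1* and *Cdh5*, and the immune cells held *Ptprc*. The zeros of *Msln* and *Upk3b* in all 4 classes, of *Lrrn4* in fibroblasts and immune cells and of *Gpm6a* in fibroblasts were set by the gates that chose those classes. The same holds for the zeros of *Epcam* and *Cdh1* in fibroblasts. A gene was counted as measured when its mean CPM of both classes was at least 10, and as higher or lower when CPM + 10 differed at least 2-fold. All folds given are of CPM + 10, and no test stands behind a count. The duct-like cells also held islet transcripts. Of 5 endocrine markers, 3 were measured between them and the members outside the fibroblast transcript cluster and the duct and islet cluster. In those members 2 were at least 2-fold lower and none was higher, with a median log2 fold of -6.73. Comparisons with duct-like cells may thus not be with duct cells alone, and the part of islet cells in them was not tested.

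Of the 18 mesothelial markers outside the rule, all were measured against fibroblasts, 17 were at least 2-fold higher in members and none was lower. Of all 9530 genes measured, 870 (9.13%) were higher and 600 (6.3%) lower. The median log2 fold of the list was 4.02, and that of all genes measured was 0.11. The count was the same over the 407 members. The 1 gene not counted was *Efemp1*, a fibulin of the extracellular matrix, at 437 CPM in members and 344 CPM in fibroblasts. Against duct-like cells 16 were higher and 2 lower, where 12.5% of all genes were higher and 8.02% lower, and against endothelial cells all 18 were higher, where 9.12% were higher and 10.9% lower. These shares of all genes apply to the lists below that are set beside the same classes. Over the 407 members, 9.35% of all genes were higher than in fibroblasts and 6.79% lower. The lists were drawn up with earlier results of these cells known.

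*Wt1*, the zinc finger factor of the body cavity lining, had 0, 3 and 34 UMIs as the lowest, median and highest count in a member. Its level was 618 CPM (589.6 to 647) in members, 114 CPM in fibroblasts and 31.2 CPM in immune cells. *Bnc1*, a zinc finger factor also found in basal keratinocytes, stood at 115 CPM (103 to 128) in members and at 0.434 CPM in fibroblasts. It was detected in 38.7% of members and 0.154% of immune cells. *Bnc1* was thus near absent from the other classes, whereas fibroblasts held some *Wt1*.

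*C3*, the central complement component, was detected in 97.2% of members against 4.77% of immune cells, with 0, 8 and 128 UMIs as the lowest, median and highest count. Its level was 1955 CPM (1905 to 2006) in members and 49.9 CPM in fibroblasts, a 32.8-fold difference. *Igfbp5*, a binding protein for insulin-like growth factors, was the most abundant marker, at 6520 CPM (6428 to 6613) against 346 CPM in fibroblasts and 459 CPM in endothelial cells. Single members held between 0 and 755 UMIs of it, with a median of 22.5. *Igfbp6* stood at 2015 CPM against 313 CPM in fibroblasts, in 98.5% of members. These 3 secreted proteins were found in nearly all members.

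*Slpi*, a secreted inhibitor of leukocyte proteases, had the largest fold over fibroblasts in the list, 71.3-fold. Its level was 1009 CPM (973 to 1046) in members and 4.28 CPM in fibroblasts. It was detected in 48.3% of members only, against 3.23% of immune cells, and ran from 0 to 159 UMIs. *Muc16*, the large surface mucin to which mesothelin binds, stood at 235 CPM (218 to 254) against 0.869 CPM, in 48.7% of members and 0.462% of immune cells. *Igfbp2* stood at 595 CPM (567 to 623) against 4.16 CPM, in 53.5% of members and 1.39% of immune cells. *Slpi*, *Muc16* and *Igfbp2* were thus detected in about as many members as not, and at these levels and depths some members without a UMI may hold the transcript. With cells thinned to 800 UMIs, *C3* was found in 74.7% of members and 1.54% of immune cells, *Slpi* in 31.4% and 1.15%, *Muc16* in 19% and 0.077%, and *Igfbp2* in 29.0% and 0.308%. The gap between members and immune cells thus remained at equal depth.

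Among the rest of the markers, *Upk1b*, a uroplakin that pairs with UPK3 proteins, stood at 332 CPM against 0.869 CPM in fibroblasts. *Pkhd1l1*, a large membrane protein, stood at 259.8 CPM against 0.806 CPM, *Dmkn* (dermokine) at 429.7 CPM against 3.16 CPM, and *Nkain4*, a partner of the sodium pump, at 524 CPM against 45.8 CPM. *Cldn15*, a claudin that forms cation pores, stood at 158 CPM against 5.77 CPM. *Aldh1a2*, which makes retinoic acid, stood at 244 CPM (227 to 263) against 37 CPM, in 62.6% of members. *Rspo1*, an R-spondin that amplifies Wnt signals, stood at 215 CPM (198 to 232) against 6.08 CPM, in 58.2% of members. The folds of this group over fibroblasts ran from 5.41 for *Aldh1a2* to 33.4 for *Dmkn*.

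**Figure D2:**
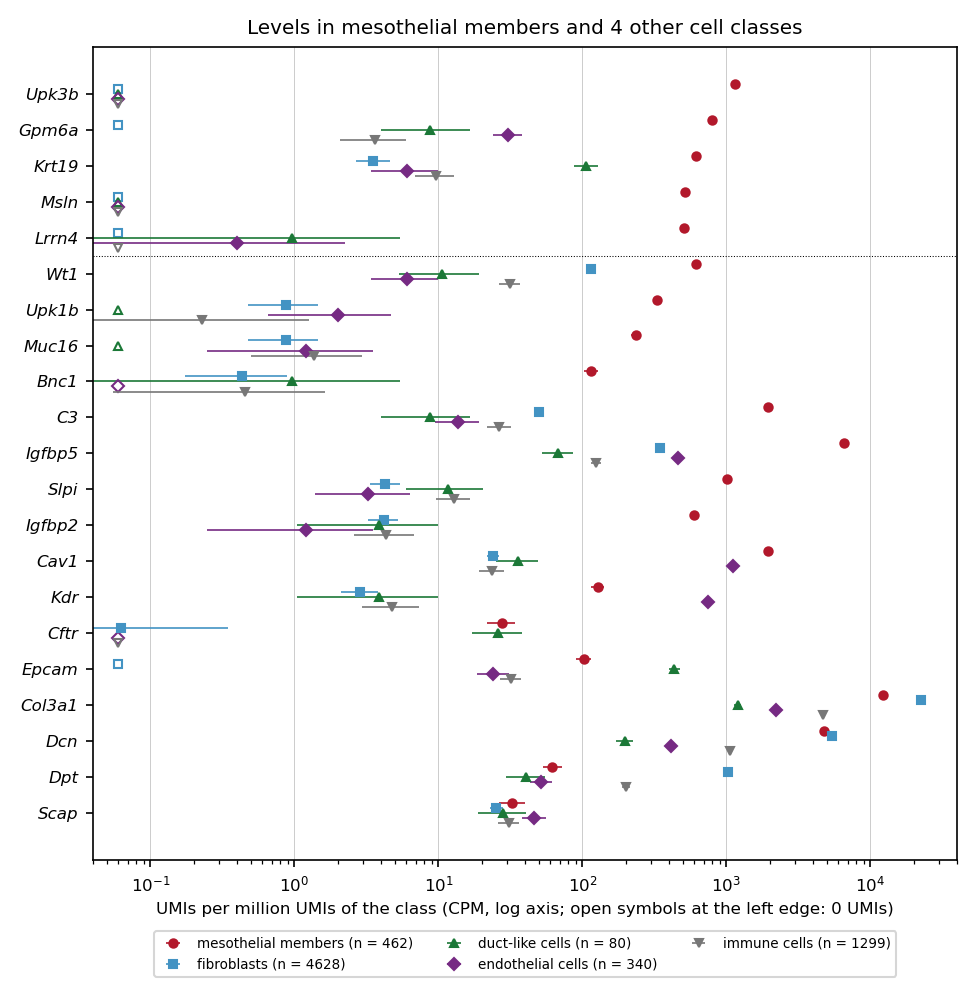
The plot gives the level of 21 genes (CPM, log axis, open symbols at the left edge where no UMI was found) in 462 members, 4628 fibroblasts, 80 duct-like cells, 340 endothelial cells and 1299 immune cells, with exact 95% Poisson intervals as bars, and with the rule genes above the dotted line. *C3*, *Igfbp5*, *Slpi* and *Igfbp2* were highest in members, *Kdr* in endothelial cells (749 CPM) and *Col3a1* in fibroblasts (22612 CPM), while *Scap* lay between 25.3 and 46.3 CPM in all 5 classes.

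Against all other kept barcodes, 771 of 9718 measured genes (7.93%) were at least 2-fold higher in members and 559 (5.75%) lower. The 20 genes with the largest fold of CPM + 10 held all 5 rule genes, which the rule put there. *Upk3b* led with 36.9-fold, followed by *Slpi* at 35.6, *Lgals7* at 32.8, *Gpm6a* at 29.9, *Msln* at 29.7, *Lrrn4* at 29.6 and *C3* at 28. *Igfbp2* stood at 24.8-fold, *Dmkn* at 22.2, *Upk1b* at 20.7, *Krt19* at 19.3, *Igfbp5* at 18.7 and *Pkhd1l1* at 17.6. *Lgals7*, a galectin of stratified epithelia, was detected in 85.5% of members at 959 CPM (923 to 995) and in 2.46% of immune cells. *Enpp2*, autotaxin, which makes lysophosphatidic acid, stood at 1099 CPM (1062 to 1138) and 17.5-fold. The list ended with *Spock3* (17.2-fold), *Muc16* (17), the acid-sensing channel *Asic2* (15.8), *Pdzrn4* (15.3), *Col6a5* (14.7) and the semaphorin receptor *Plxna4* (14.2).

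Keratins and junction genes set the members apart from fibroblasts and showed an incomplete epithelium. Of the 21 genes listed, 15 were measured against fibroblasts, 13 were higher and none was lower, with a median log2 fold of 2.46. *Epcam* and *Cdh1* were among the 13, and their zeros in fibroblasts were set by the gate. Over the 407 members 10 were measured and 8 were higher, with a median of 2.31, since several epithelial genes came from the 6 duct and islet barcodes. *Epcam* stood at 102 CPM over all members and at 4.78 CPM over the 407. *Cdh1*, E-cadherin, stood at 53.8 and 4.78 CPM in the same order, and *Cldn7* at 55.8 and 1.74 CPM. The classical epithelial adhesion genes were thus near background in the mesothelial clusters.

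What the 407 members did hold was a set of simple keratins. *Krt8* stood at 255 CPM over the 407 and at 5.27 CPM in fibroblasts, with 802 CPM in duct-like cells. *Krt18* stood at 136 CPM against 3.66 CPM in fibroblasts and 529 CPM in duct-like cells. *Krt7* stood at 174 CPM against 0.682 CPM in fibroblasts and 31 CPM in duct-like cells. *Krt7* was therefore the one of these keratins with a higher level in members than in duct-like cells. *Krt14*, a keratin of basal epidermis, was found in 9.52% of members at 46 CPM (38.5 to 54.4) and had no UMI in endothelial, duct-like or immune cells, while its usual partner *Krt5* had no UMI in members.

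Junction genes of the members were *Tjp1*, which anchors tight junctions, at 168 CPM against 54.7 CPM in fibroblasts, and *Jup*, plakoglobin, at 149 CPM against 34.7 CPM. *Cdh3*, P-cadherin, stood at 31.7 CPM against 0.744 CPM. *Cdh2*, N-cadherin, stood at 9.87 CPM against 13.3 CPM. *Vim*, the intermediate filament of mesenchyme, was the most abundant gene of the list at 1123 CPM, and fibroblasts held 1133 CPM. Against duct-like cells, 5 of 19 measured were higher and 10 lower over all members, with a median log2 fold of -1.19. The duct-like cells had been chosen by UMIs of *Epcam*, *Cdh1*, *Cldn3* and *Cldn7* of this list. Lower values of these genes in members were thus in part set by that choice. Members thus carried keratins, tight junction scaffolds and vimentin together, with little E-cadherin or EpCAM.

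*Cftr*, the chloride channel known from ducts, was found in 12.6% of members at 27.6 CPM (21.9 to 34.3). Over the 407 members it stood at 27.4 CPM (21 to 35), and it stood at 26.1 CPM in duct-like cells and 0.062 CPM in fibroblasts. No UMI of it was found in endothelial or immune cells. The duct factor *Sox9* stood at 129 CPM over all members and at 3.91 CPM over the 407.

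All 19 surface and glycocalyx genes were measured against fibroblasts, 11 were higher and 3 lower, with a median log2 fold of 1.48 (10 higher and 3 lower of 18 without the 2 clusters). *Cav1*, the coat protein of caveolae, led the group at 1939 CPM (1889 to 1990) in 95% of members, 57.3-fold above the 24 CPM of fibroblasts, and endothelial cells held 1104 CPM. *Ezr*, ezrin, which ties microvilli to actin, stood at 399 CPM against 9.55 CPM in fibroblasts. *Podxl*, a sialomucin of podocytes and vessels, stood at 263 CPM against 2.05 CPM in fibroblasts and 336 CPM in endothelial cells. Against endothelial cells, 6 of the 19 surface genes were higher in members and 4 lower.

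*Sdc4*, a heparan sulphate proteoglycan, stood at 427 CPM against 35.8 CPM in fibroblasts, and *Cd200*, a ligand that restrains myeloid cells, at 278 CPM against 28.4 CPM. *Aqp1*, the water channel, stood at 150.2 CPM against 3.78 CPM, and *Bcam*, a laminin receptor, at 141 CPM against 4.53 CPM. *Pdpn*, podoplanin, stood at 126 CPM against 33.6 CPM. The 3 lower genes were *Thy1* at 23.8 CPM against 157 CPM, the hyaluronan receptor *Cd44* at 88.9 CPM against 245 CPM, and the leukocyte ligand *Vcam1* at 10.6 CPM against 68.6 CPM. These 3 are surface proteins that fibroblasts are known to carry. *Kdr*, the main receptor for vascular endothelial growth factor, was found in 38.1% of members and 1.62% of immune cells. Its level was 128 CPM (115 to 141) over all members, 152 CPM (137 to 169) over the 407 and 749 CPM in endothelial cells, although a UMI of *Pecam1* or *Cdh5* excluded a barcode from the members.

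Transcription factors fell in both directions. Of 23 listed, 20 were measured against fibroblasts, 9 were higher and 6 lower, with a median log2 fold of 0.15 (8 higher and 7 lower over the 407, median -0.09). *Bnc1* had the largest fold, 12.0. Of the GATA factors of the body wall and gut mesoderm, *Gata6* stood at 349 CPM (328 to 371) in members and 65.8 CPM in fibroblasts. *Gata5* stood at 31 CPM against 0.248 CPM, and *Gata4* at 15 CPM against 2.11 CPM, under the measured limit. *Bnc2* stood at 454 CPM against 165 CPM, *Sox6* at 441 CPM against 133 CPM, *Tbx18*, known from the epicardium, at 26.9 CPM against 2.85 CPM, and *Klf5* at 71.2 CPM against 14.1 CPM. *Sox9* also counted as higher over all members and was lower over the 407, as given above.

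Factors known from mesenchyme were among the lower ones. *Zeb2*, a repressor of epithelial genes, stood at 157 CPM in members and 1041 CPM in fibroblasts, 6.28-fold lower. *Zeb1* stood at 145 CPM against 498 CPM, *Tcf21*, a factor of visceral fibroblasts, at 11.6 CPM (7.39 CPM over the 407) against 86.4 CPM, *Twist2* at 20.1 CPM against 59.2 CPM, and *Snai2* at 9.19 CPM against 33.1 CPM. *Nr2f2*, found in both lineages, stood at 276 CPM against 259 CPM. *Klf4* was the most abundant factor, at 671 CPM in members and 1183 CPM in fibroblasts.

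The basement membrane genes were split by chain. Of 18 listed, 17 were measured against fibroblasts, 7 were higher and 7 lower, with a median log2 fold of 0.02 (8 and 6, 0.06, over the 407). *Col4a5* stood at 288 CPM (269 to 308) against 30.4 CPM in fibroblasts, and *Col4a6*, the chain it assembles with, at 117 CPM against 6.27 CPM. *Col4a1*, a chain of the common network, stood at 80 CPM (70.1 to 90.9) against 842 CPM in fibroblasts and 3689 CPM in endothelial cells. Its partner *Col4a2* stood at 49.4 CPM (32.2 CPM over the 407) against 466 CPM. *Col4a5* and *Col4a6* were thus above *Col4a1* and *Col4a2* in members and below them in fibroblasts, and *Col4a1* was lower still, 45.2 CPM, over the 407 members.

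*Npnt*, nephronectin, an integrin ligand, stood at 129 CPM against 7.32 CPM in fibroblasts, and the Fraser complex genes *Fras1* and *Frem2*, which hold epithelia to their stroma, at 279 CPM against 31.9 CPM and 41.5 CPM against 1.05 CPM. *Agrn*, agrin, stood at 67.8 CPM against 9.43 CPM, and the epithelial laminin chain *Lama5* at 23.2 CPM against 1.24 CPM. *Lama2*, the chain of muscle and mesenchyme, stood at 107 CPM against 640.2 CPM, and the linker *Nid1* at 327 CPM against 1380 CPM. No UMI of *Lama1* was found in members. Summed over the list, the level was 2637 CPM in members, 5250 CPM in fibroblasts and 8259 CPM in endothelial cells.

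Stromal genes were abundant in members although none was higher than in fibroblasts. The fibroblasts had been chosen by UMIs of *Col1a1*, *Col3a1*, *Pdgfra* and *Dpt*, so lower values of these 4 genes in members were in part set by that choice. All 15 were measured, 9 were lower and none was higher, with a median log2 fold of -1.17 (9 lower, -1.09, over the 407). Their summed level was 36379 CPM in members, 67613 CPM in fibroblasts, 14135 CPM in immune cells, 10269 CPM in endothelial cells and 3571 CPM in duct-like cells. *Col3a1*, a fibrillar collagen, was found in every member, with a median of 52 and a highest count of 668 UMIs, and was the most abundant transcript of the members. It stood at 12225 CPM (12099 to 12352) in members, 22612 CPM in fibroblasts and 4725 CPM in immune cells, which should lack it. Its level in members thus lay between those of fibroblasts and immune cells.

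*Dcn*, the proteoglycan decorin, stood at 4775 CPM in members and 5403 CPM in fibroblasts, in 99.4% of members, with a median of 17.5 and a highest count of 348 UMIs. *Sparc*, a collagen-binding matrix protein, stood at 6970 CPM against 6090 CPM. *Col1a1* stood at 5285 CPM against 11943 CPM, and *Fn1*, fibronectin, at 1176 CPM against 1704 CPM. A second set of stromal genes was far lower: *Postn* at 151 CPM against 2377 CPM, *Lum* at 135 CPM against 1877 CPM, *Dpt* at 62 CPM against 1025 CPM and *Pdgfra* at 45.3 CPM against 437 CPM. Over the 407 members, *Postn*, *Lum* and *Dpt* dropped further to 53.9, 61.3 and 23.5 CPM. Over all members, *Dcn*, *Sparc* and *Fn1* were thus within 2-fold of fibroblasts, and *Postn*, *Lum* and *Dpt* were not. The level of *Fn1* pools unlike clusters, with 302 CPM in the *Slpi Muc16* and 2437 CPM in the *Enpp2 Igfbp2* cluster. Against duct-like cells 10 of the 15 stromal genes were higher and none lower, with a median log2 fold of 2.37.

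**Figure D3:**
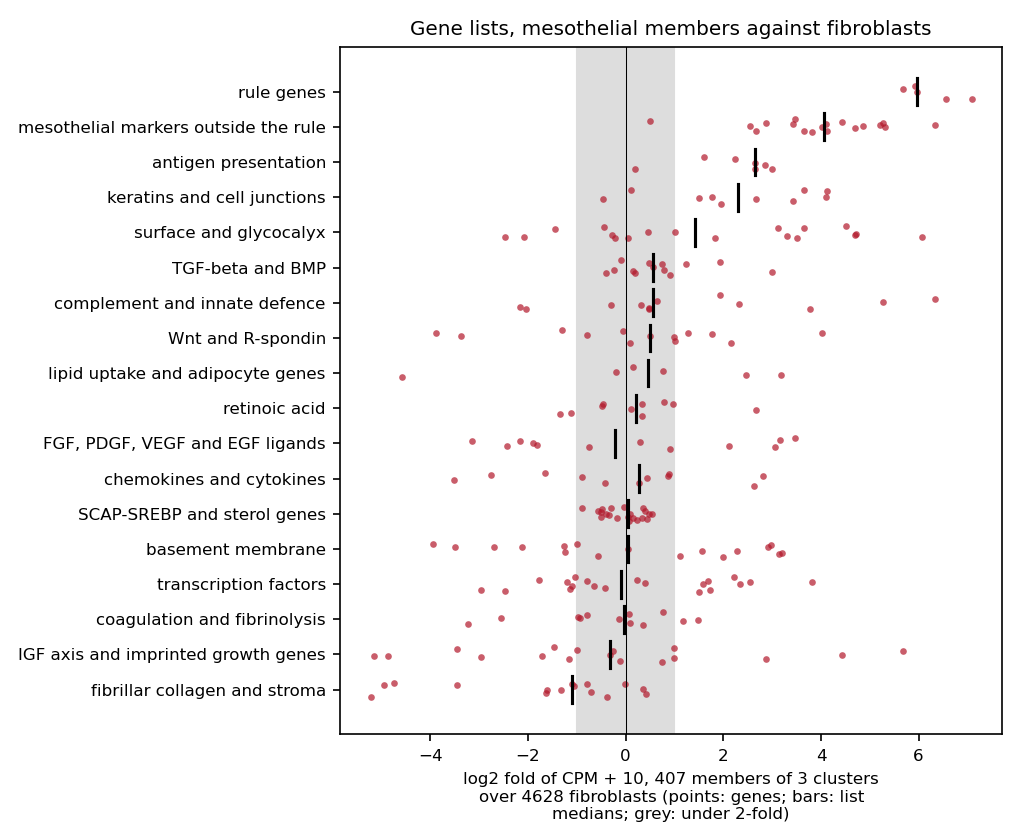
Each point is 1 measured gene of a list, and its place on the horizontal axis is the log2 fold of CPM + 10 in the 407 members outside the fibroblast transcript cluster and the duct and islet cluster over 4628 fibroblasts. Black bars are list medians, grey marks less than 2-fold, and the spread within a line is vertical jitter only. Markers outside the rule (median 4.07) and antigen presentation (2.64) lay to the right, stromal genes to the left (-1.09), and sterol genes within the grey band (0.06). The place of a rule gene with no UMI in fibroblasts is set by the added 10 CPM and is no estimate of its fold.

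Among the defence genes, 12 of 17 complement and innate defence genes were measured against fibroblasts, 5 were higher and 2 lower, with a median log2 fold of 0.44. Beside *Slpi* and *C3*, the higher genes included *C2* at 431 CPM against 27.5 CPM and *Cfb* at 90.2 CPM against 12 CPM. *C2* and *Cfb* supply the proteases that cleave C3. *Cd55*, which protects cells from complement, was lower, at 68.1 CPM against 298 CPM. *Serping1*, the C1 inhibitor, stood at 969.8 CPM against 795 CPM.

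Of 8 antigen presentation genes, 7 were measured against fibroblasts, 6 were higher and none was lower, with a median log2 fold of 2.4 (2.64 over the 407, with the same 6 higher). *Cd74*, the invariant chain of class II molecules, stood at 149 CPM (136 to 164) in members, 13.8 CPM in fibroblasts, 44.3 CPM in endothelial cells and 710.1 CPM in immune cells. *H2-Aa*, *H2-Ab1* and *H2-Eb1*, the class II chains, stood at 77.6, 77 and 102 CPM in members and at 6.58, 4.4 and 11 CPM in fibroblasts. *Ciita*, the class II transactivator, stood at 2.04 CPM (0.75 to 4.45), close to the 1.02 CPM that no UMI would allow. *H2-K1*, a class I chain, stood at 347 CPM against 71.8 CPM, and *B2m*, its partner, at 302 CPM against 293 CPM. Class II transcripts were thus higher than in fibroblasts and lower than in immune cells, whose markers summed to 46.3 CPM in members, with *Ptprc* at 0, and their part in the class II levels was not tested.

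Chemokines and cytokines gave 2 higher and 3 lower genes among 11 measured of 13. *Cxcl13*, which attracts B cells, was found in 33.1% of members at 391 CPM (369 to 414) against 60.2 CPM in fibroblasts, with up to 147 UMIs in a member. *Il18* stood at 57.2 CPM against 2.48 CPM. *Cxcl12*, which retains blood precursors, stood at 34.7 CPM against 232 CPM, *Il6* at 6.81 CPM (2.17 CPM over the 407) against 129.7 CPM and *Cxcl1* at 53.1 CPM against 189 CPM. Coagulation genes gave 2 higher and 2 lower of 12 measured of 13. The higher genes were *Plaur*, the urokinase receptor, at 41.2 CPM against 8.75 CPM, and *Anxa2*, which binds plasminogen, at 898 CPM against 443 CPM. The lower genes included the protease inhibitor *Serpine2*, at 27.6 CPM (16.5 CPM over the 407) against 236 CPM. *Thbd*, thrombomodulin, stood at 482 CPM against 323 CPM in fibroblasts and 163 CPM in endothelial cells, and *S100a10*, the partner of *Anxa2*, was the most abundant of the list at 1182 CPM.

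Growth factor genes set members and fibroblasts apart by ligand. Of 14 ligands listed, 13 were measured, 6 were higher and 4 lower (12, 4 and 5 over the 407). *Fgf1* stood at 311 CPM against 31.8 CPM in fibroblasts, *Fgf9* at 103 CPM against 1.24 CPM, *Nrg1*, neuregulin, at 127 CPM against 7.44 CPM and *Pdgfa* at 99.1 CPM against 14 CPM. *Fgf10*, the mesenchymal signal to pancreatic epithelium, stood at 17 CPM (9.56 CPM over the 407) against 163 CPM, and *Hgf* at 2.38 CPM against 42.3 CPM. The ligands that were higher include *Fgf9* and *Nrg1*, which were near background in fibroblasts.

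Among 15 Wnt and R-spondin genes, 13 were measured, 4 were higher and 2 lower, with a median log2 fold of 0.37 (5 and 3, 0.5, over the 407). The higher genes beside *Rspo1* were *Wnt4* at 60.6 CPM against 6.33 CPM, *Wnt2b* at 20.8 CPM against 3.97 CPM and *Lgr5*, a receptor of R-spondins, at 24.2 CPM against 0.558 CPM. *Rspo3* stood at 10.2 CPM (3.91 CPM over the 407) against 133 CPM and the Wnt inhibitor *Dkk2* at 9.53 CPM (2.61 CPM over the 407) against 177 CPM. Members and fibroblasts thus held different R-spondins. *Wnt5a*, the most abundant of the list, stood at 224 CPM against 255 CPM. Of 13 TGF-beta and BMP genes measured of 16, 4 were higher and none was lower (3 and none over the 407). *Id1* stood at 147 CPM against 12.7 CPM and *Id3* at 504 CPM against 146 CPM, 2 targets of BMP signals that also stood at 244 and 489 CPM in endothelial cells.

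Of the 17 genes of the IGF axis and imprinted growth genes, all measured, 3 were higher and 7 lower (4 and 8 over the 407). The 3 were the binding proteins *Igfbp2*, *Igfbp5* and *Igfbp6*. *Igfbp4* stood at 1843 CPM against 1253 CPM and *Igf1* at 769 CPM against 415 CPM. *Igf2*, the fetal growth factor, stood at 127 CPM against 1953 CPM in fibroblasts, and *H19*, its imprinted neighbour, at 313 CPM against 4455 CPM. Over the 407 members they stood at 56.9 and 116 CPM. *Cdkn1c*, an imprinted inhibitor of growth, stood at 94.3 CPM against 795 CPM and *Peg3* at 244 CPM against 1498 CPM. *Dlk1* stood at 331 CPM against 966 CPM and *Meg3* at 774 CPM against 1547 CPM, while *Grb10* stood at 380.3 CPM against 415 CPM. The imprinted genes of the list thus differed from each other in how far members lay below fibroblasts.

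Retinoic acid genes gave 1 higher and 2 lower of 10 measured of 16, where 9.13% of all measured genes were higher than in fibroblasts and 6.3% lower. *Aldh1a2* was the 1, and *Aldh1a1*, another retinal dehydrogenase, was lower, at 33.7 CPM against 89.6 CPM. Of the 9 lubricant and hyaluronan genes, 4 were measured, with *Muc16* higher and the hyaluronan synthases *Has1* (23.8 CPM against 109.9 CPM) and *Has2* (5.45 CPM, or 2.61 CPM over the 407, against 52.4 CPM) lower. *Prg4*, lubricin, stood at 2.38 CPM. *Efemp1*, the fibulin given above, had the highest level of the list.

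*Scap* was detected in 16.9% of members and 9.16% of immune cells, and with cells thinned to 800 UMIs in 2.38% and 2.69%, so the gap in detection was not seen at equal depth. Its level was 32.7 CPM (26.5 to 39.9) in members, 25.3 CPM in fibroblasts, 28.1 CPM in duct-like cells, 46.3 CPM in endothelial cells and 30.7 CPM in immune cells. *Srebf1* stood at 21.5 CPM in members and 25.1 CPM in fibroblasts, and *Srebf2*, the factor of sterol synthesis, at 68.4 and 56.9 CPM. Of 22 SCAP-SREBP and sterol genes, 21 were measured against fibroblasts, and none was 2-fold higher or lower, with a median log2 fold of 0.07. The summed level was 1026 CPM in members, 925 CPM over the 407, 1028 CPM in fibroblasts, 1277 CPM in duct-like cells, 766 CPM in endothelial cells and 682 CPM in immune cells. *Hmgcs1*, an early enzyme of sterol synthesis, stood at 114 CPM against 74.9 CPM in fibroblasts, and *Scd2*, a desaturase and the most abundant of the list, at 139 CPM against 217 CPM. Members and fibroblasts were thus within 2-fold of each other in every measured gene of the list.

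Of 11 genes of lipid uptake and adipocytes, 6 were measured against fibroblasts, with *Fabp5* at 688 CPM against 80.5 CPM and *Apoe* at 1358 CPM against 237 CPM higher. *Lpl*, lipoprotein lipase, was lower, at 125 CPM (57.8 CPM over the 407) against 1616 CPM. *Adipoq* and *Plin1*, which mark adipocytes, had no UMI in members, which allows up to 1.02 CPM.

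The members were not uniform. The *Slpi Muc16* cluster held 198 (42.9%, 38.3 to 47.5), the *Enpp2 Igfbp2* cluster 178 (38.5%, 34.1 to 43.1) and the cycling cluster 31 (6.71%, 4.6 to 9.39). Depth was alike in the first 2, with medians of 3870 and 3932 UMIs and 1974 and 1968 genes. Scrublet marked 2 (1.01%) and 9 (5.06%) of them. The genes below, other than the rule genes, were open to the clustering, so their differences describe the clusters and no test was made.

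*Slpi* stood at 2126 CPM (2039 to 2215) in the *Slpi Muc16* cluster and at 125 CPM (103 to 151) in the *Enpp2 Igfbp2* cluster. In single cells its lowest, median and highest counts were 0, 4 and 159 UMIs in the first and 0, 0 and 30 in the second, where 145 of 178 had none. *Igfbp2* stood the other way, at 86.2 CPM (69.5 to 106) and 1392 CPM (1315 to 1471), with 0, 0 and 12 UMIs against 0, 5 and 66. *Enpp2* stood at 263 CPM (233 to 296) and 2576 CPM (2471 to 2684), and *Fn1* at 302 CPM (269.5 to 336) and 2437 CPM (2336 to 2542). The 2 clusters thus differed severalfold in both directions, and the counts of single cells overlapped at the low end.

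**Figure D4:**
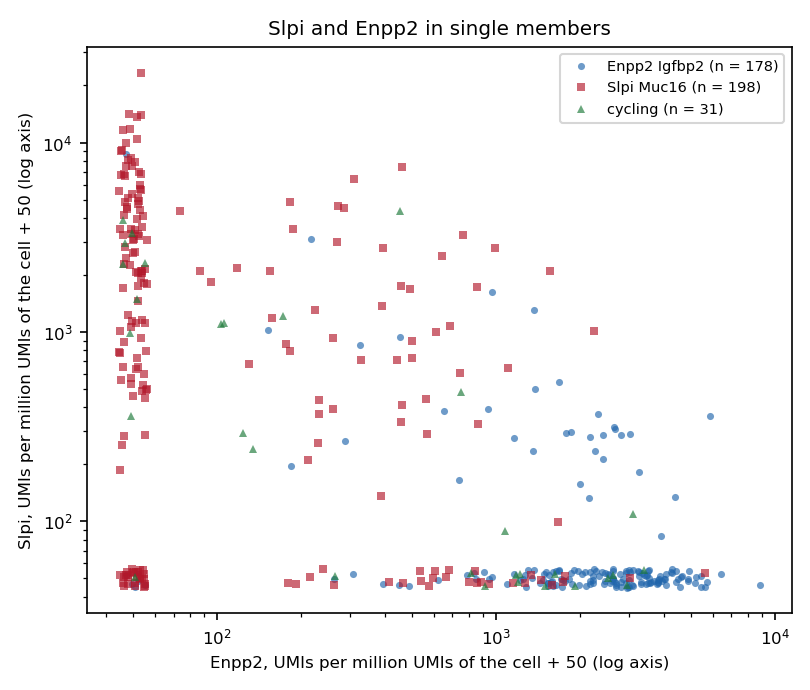
Each point is 1 of 407 members, with *Enpp2* on the horizontal and *Slpi* on the vertical axis. Both are UMIs scaled to 1000000 UMIs of the cell, plus 50, on log axes. Every point was shifted slightly at random on both axes so that points do not cover each other. Most of the 178 members of the *Enpp2 Igfbp2* cluster (blue) lay at the lower right and most of the 198 of the *Slpi Muc16* cluster (red) along the left edge, while the 31 cycling members (green) lay in both places.

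Of the 5 rule genes, 3 were at least 2-fold higher in the *Slpi Muc16* cluster, among them *Msln*, at 1022 CPM (962 to 1084) against 178 CPM (151 to 208). *Msln* was detected in 87.4% of that cluster and 42.1% of the other. The members were chosen on these UMIs, so the values are a description. *Upk3b* stood at 1824 and 856 CPM in the same order, and *Wt1* the other way, at 546 CPM (503 to 592) and 904 CPM (842 to 968). The median sum of the rule genes was 20 and 9 UMIs, so the threshold of 4 lay nearer to the *Enpp2 Igfbp2* cells. Of the 18 markers outside the rule, 5 were at least 2-fold higher in the *Slpi Muc16* cluster and none in the other, where 2.63% and 2.33% of 9287 measured genes were.

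Of 11 keratin and junction genes measured, 5 were higher in the *Slpi Muc16* cluster and none in the other. *Krt14* stood at 108 CPM against 3.38 CPM, *Krt7* at 265 CPM against 69.9 CPM and *Krt8* at 346 CPM against 142 CPM. *Krt14* was detected in 17.6% of the members with a *Slpi* UMI and 1.4% of those without, among the 407. *Plet1*, a surface protein of epithelial progenitors, stood at 127 CPM against 1.13 CPM. Of 17 surface genes, 6 were higher, among them *Muc16* at 449.6 CPM against 87.9 CPM, *Aqp1* at 291 CPM against 32.7 CPM and *Cav1* at 2967 CPM against 1356 CPM. The other cluster held 1 higher surface gene, *Cd44*, at 126 CPM against 28.1 CPM in the *Slpi Muc16* cluster. *Lama5* stood at 39.3 CPM against 2.25 CPM and *Cftr* at 43.1 CPM against 15.8 CPM. The *Slpi Muc16* cluster thus held the higher levels of these genes, apart from *Cd44*. Of the 4 red blood cell markers, 2 were also at least 2-fold higher in it, *Hbb-bs* at 1834 CPM against 612 CPM and *Hbb-bt* at 417 CPM against 108 CPM, and their part in the other differences was not tested.

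Several antigen presentation, chemokine and lipid genes went the other way. Of 7 antigen presentation genes measured, 4 were at least 2-fold higher in the *Enpp2 Igfbp2* cluster and none in the other, with a median log2 fold of 2.4. *Cd74* stood at 383 CPM (343 to 426) against 45.0 CPM (33.1 to 59.6), and *H2-Aa* at 184 CPM against 24.4 CPM. At least 1 UMI of the class II genes was found in 125 of 178 members (70.2%) of the *Enpp2 Igfbp2* cluster and in 62 of 198 (31.3%) of the other. At unequal depths, the shares were 7.09% of fibroblasts, 26.2% of duct-like, 13.5% of endothelial and 29.7% of immune cells. At least 5 class II UMIs were found in 52 members (29.2%) and 9 members (4.55%) of the 2 clusters. They were found in 0.432% of fibroblasts, 1.25% of duct-like, 3.24% of endothelial and 21.2% of immune cells. The leukocyte gene *Cd52*, the 1 immune marker measured, moved the same way, at 72.1 CPM against 19.7 CPM, and the B cell gene *Cd79a* stood at 12.4 CPM against 2.81 CPM. In the clustering of all kept barcodes, 4 members of the *Enpp2 Igfbp2* cluster and none of the *Slpi Muc16* cluster fell in clusters led by leukocyte genes. The part of leukocyte transcripts in the class II levels was not tested. Class II UMIs were found in more members of the *Enpp2 Igfbp2* cluster than of the other.

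Of 9 chemokines and cytokines measured, 4 were higher in the *Enpp2 Igfbp2* cluster and none in the other. *Cxcl13* stood at 864 CPM against 73.1 CPM, *Cxcl1* at 108 CPM against 4.68 CPM and *Ccl2*, which attracts monocytes, at 57.5 CPM against 5.62 CPM. Few members carried *Ccl2*, 5.06% of the *Enpp2 Igfbp2* cluster and 1.52% of the other. Over all members it fell from 21.1 to 8.9 CPM when the rule genes had to sum to at least 8. Even within the cluster *Cxcl13* was uneven, with 0, 1 and 147 UMIs as the lowest, median and highest counts. Of 6 lipid genes measured, 3 were higher in this cluster and none in the other. *Fabp5* stood at 1572 CPM against 245 CPM and *Apoe* at 2096 CPM against 805 CPM. *Igfbp3* stood at 792 CPM against 34.7 CPM, *Lepr*, the leptin receptor, at 168 CPM against 15 CPM, and *Lgr5* at 59.7 CPM against 2.81 CPM. *Lama2*, a stromal laminin, stood at 159 CPM against 26.2 CPM and *Acta2*, smooth muscle actin, at 196 CPM against 46.8 CPM. Of 15 stromal genes, 4 were higher in this cluster and none in the other, with a median log2 fold of 0.28.

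Detection of these genes in single cells, which restates the clustering, was as follows. Among the 407 members, 66 had UMIs of both *Slpi* and *Igfbp2*, 127 of *Slpi* alone, 160 of *Igfbp2* alone and 54 of neither. *Slpi* was thus found in 29.2% of the members with *Igfbp2* and in 70.2% of those without. *Enpp2* was found in 91.2% of the members with *Igfbp2* and in 34.8% of those without, and *Cd74* in 43.8% and 16.6%. With cells thinned to 800 UMIs, *Slpi* was found in 53.0% of the *Slpi Muc16* cluster and 7.87% of the *Enpp2 Igfbp2* cluster, *Igfbp2* in 4.55% and 63.5%, and *Msln* in 52.5% and 20.8%. These shares come from 1 library and are descriptions.

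Other genes were less than 2-fold apart in the 2 clusters. *Aldh1a2* stood at 275 CPM in the *Enpp2 Igfbp2* and 304 CPM in the *Slpi Muc16* cluster, *Kdr* at 149.9 and 159 CPM, and *Gata6* at 420.3 and 342 CPM. *C3* stood at 2083 and 2699 CPM, *Col3a1* at 13850 and 12358 CPM and *Scap* at 40.6 and 35.6 CPM. None of the 21 sterol genes and none of the 11 immediate early and heat shock genes differed 2-fold between them. Transcription factors gave 1 gene higher in the *Enpp2 Igfbp2* and 3 in the *Slpi Muc16* cluster among 18 measured.

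The cycling cluster had a median of 8653 UMIs and held *Mki67*, a nuclear protein of dividing cells, at 243 CPM, against 12.4 CPM in the *Enpp2 Igfbp2* and 5.62 CPM in the *Slpi Muc16* cluster. Its levels of *Slpi* (749 CPM), *Igfbp2* (925 CPM), *Enpp2* (1078 CPM) and *Muc16* (191 CPM) lay between those of the other 2. Of its 31 members, 14 had no *Slpi* UMI and 13 no *Igfbp2* UMI. Over all members, 1 of 11 cell cycle genes, *Cenpf*, was at least 2-fold higher than in fibroblasts, where 9.13% of all measured genes were. Over the 407 members 2 were, where 9.35% of all measured genes were. The summed level of the list was 586 CPM in members against 349.6 CPM in fibroblasts.

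**Figure D5:**
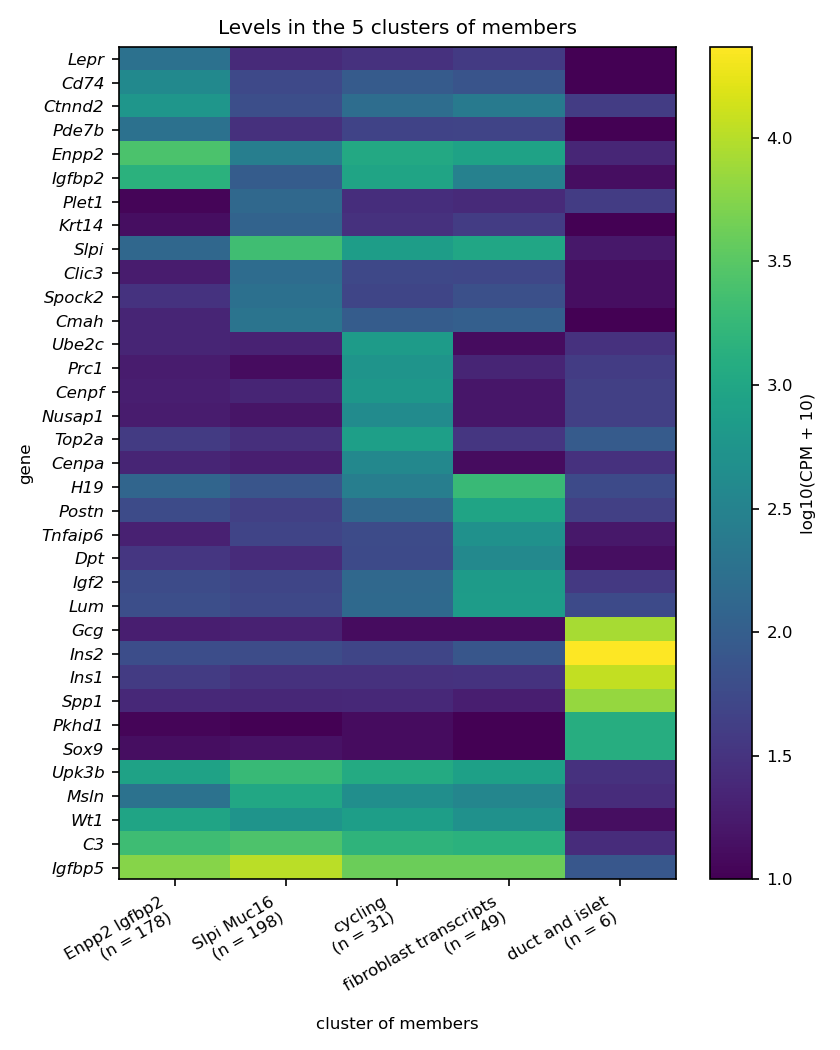
The colours give log10(CPM + 10) of 35 genes (rows) in the 5 clusters of members (columns, with the number of cells), first the leading genes of each cluster and then *Upk3b*, *Msln*, *Wt1*, *C3* and *Igfbp5*. *Upk3b* and *Igfbp5* were present in the first 4 clusters and near the bottom of the scale in the 6 duct and islet barcodes. Their *Ins2* (23267 CPM) was the brightest value, with 6993 of its UMIs in a single barcode.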

How the data were processed

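The authors aligned the reads to mm10 with Cell Ranger 7.1.0, per the labels, and deposited raw UMI counts for each gene and barcode. The table listed 32285 genes, and its lowest barcode held 500 UMIs, below the lower limit of 800 in the methods. The upper limit used there, 10000 UMIs, was run as an alternative, and ambient RNA was not removed. Members, comparison classes and gene lists were chosen with earlier results of these data known. UMIs were summed per class and scaled to CPM, with exact 95% Poisson intervals, and a count of 0 was given the limit of 3 counts. Shares have exact Clopper-Pearson 95% intervals. Folds are of CPM + 10. Members were clustered with scanpy 1.11.5 (2000 variable genes without the rule genes, 20 principal components, 15 neighbours, Leiden resolution 0.5). Doublets were scored with Scrublet (expected rate 0.08, threshold 0.258) and kept. Genes were named by list (highest and lowest fold, highest level), by fold over other barcodes, by UMIs, by variance and as leading genes of clusters, and other list members were named after their values were seen. Some genes of the lists are counted but not reported here by name. Python 3.11.15, numpy 2.4.6, scipy 1.17.1 and pandas 2.3.3 were used. The intervals, the thinning and the 2-fold calls were tested on simulated data, and the gates, the clustering and the doublet scores were not.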

Additional observations from a re-analysis of the deposited data

How the results depend on the processing

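No paired analysis was possible because there was 1 library. Counts of genes and cells kept within 1.5 times their value under the alternatives, with these exceptions. Without members holding over 1% of their UMIs in *Col1a1* and *Col3a1*, 54 members were left, 104 of 268 levels stayed within 1.5-fold, 1331 genes were higher than in fibroblasts and 354 lower than in duct-like cells. With the immune profile subtracted as ambient RNA, 4755 genes were higher and 2556 lower than in duct-like cells, whose profile is rich in acinar transcripts. In this setting 5 of 268 levels fell over 1.5-fold, those of the 4 acinar genes and *Cd52*. The subtracted profile was scaled to the acinar UMIs of the members, so the fall of the acinar genes was set by the method. These genes gave 7.17% of the UMIs of immune cells and 0.439% of those of members. Little of most other genes was therefore subtracted, and their steady levels are no check against ambient RNA. The members formed 9 clusters at a resolution of 1.0 and 3 without barcodes marked by Scrublet, where 158 of 169, 192 of 205 and 26 of 46 cells came from the *Enpp2 Igfbp2*, *Slpi Muc16* and cycling clusters. Members numbered 480 with a sum of at least 3 and 353 with at least 8, 425 without *Krt19* and 396 under 10000 UMIs, where 27 of 268 levels fell and 1 rose over 1.5-fold. Without the fibroblast and the duct and islet clusters, a setting chosen after seeing the data, 34 levels fell and none rose so far. With immune cells limited to under 5% acinar UMIs, 1157 were left, and *Wt1* stood at 40 CPM and *Col3a1* at 6148 CPM in them. The depth of the members sets a limit of 1.02 CPM for a gene with no UMI.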

Other observations

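Variation between members was largest in globin genes. Among the 407 members, the variance of *Hbb-bs* over cells was 597 times that of counting alone, and that of *Hbb-bt* 153 times, against a median of 1.12 over 4149 genes. Over all members *Hbb-bs* stood at 1302 CPM, against 2715 CPM in fibroblasts and 4856 CPM in immune cells, and 75.2% of the UMIs of the 4 globin genes lay in 6 members. Next came *Malat1* at 45.3 times, a nuclear RNA, *Cxcl13* at 33.3 times, *Igfbp5* at 29.9 times and *Slpi* at 21.6 times. Over all 462 members the hormone genes *Ins2* (588 times) and *Gcg* (217 times) also ranked high, and 98.4% of the UMIs of the endocrine list lay in 6 members. A single duct and islet barcode held 6993 of the 7142 *Ins2* UMIs and 2548 of the 2570 *Gcg* UMIs.

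The most abundant transcripts of the members beside the matrix genes and *Igfbp5* were *Malat1* at 8252 CPM, the galectin *Lgals1* at 5878 CPM against 1631 CPM in fibroblasts, *Tmsb4x* at 5389 CPM, *Actb* at 5371 CPM and *Crip1*, a LIM protein, at 5310 CPM against 1250 CPM.

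Immediate early genes were abundant in every class of this digested tissue. Their list summed to 12865 CPM in members, 14340 CPM in fibroblasts, 10179 CPM in duct-like cells, 16895 CPM in endothelial cells and 5496 CPM in immune cells. *Fos* stood at 4657 CPM in members and 4603 CPM in fibroblasts. Of the 11 genes, 2 were at least 2-fold higher than in fibroblasts and none lower over all members (3 higher and 1 lower, *Junb*, over the 407). The 2 were *Hspa1b*, an inducible heat shock gene, at 66.4 CPM against 18.8 CPM and *Atf3*, a stress-induced factor, at 856 CPM against 413 CPM. Of 8 Hedgehog genes, 4 were measured against fibroblasts, and 1, *Gli2*, was lower, at 35.1 CPM against 83.3 CPM.

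The rule left out barcodes that also held mesothelial transcripts. Of 548 kept barcodes with at least 4 UMIs of the rule genes and a UMI of *Msln* or *Upk3b*, 86 were excluded. A *Ptprc* UMI was found in 26 of them, a *Pecam1* or *Cdh5* UMI in 38 and acinar transcripts over the limit in 42, with 20 under more than 1 of these. A UMI of *Msln* or *Upk3b* was found in 982 kept barcodes, of which 520 were not members.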
